A study of Homo sapiens with 16 samples.

Results

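Oxidative phosphorylation is carried out by the respiratory complexes I to IV and by the ATP synthase of the inner mitochondrial membrane, and most of their subunits are encoded in the nucleus and imported. Nuclear-encoded respiratory chain genes were taken as the rows of the expression table whose names start with NDUF (without the NDUFAF assembly factors), UQCR, ATP5 or COX4 to COX8, with SDHA to SDHD and CYC1, and whose mean over the 16 libraries was at least 1 RPKM. RPKM scales the reads of a gene to transcript length and to the size of the library. Of 20612 rows, 92 matched by name and 82 of these reached the threshold. The 82 rows hold 77 subunits and 5 rows that are not subunits. Of the subunits, 37 belong to complex I, 4 to complex II, 9 to complex III, 12 to complex IV (with NDUFA4 and COX7A2L counted there) and 15 to the ATP synthase. UQCRHL, an intronless copy of UQCRH, lay just inside the threshold at 1.45 RPKM, and the readthrough row ATP5J2-PTCD1 lay just outside it at 0.99 RPKM.

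The cells were HCT116, a human colorectal cancer line, in a p53-/- and a p53+/+ version. For 8 h each version received Entinostat (2.5 µM) together with Nutlin-3A (5 µM), named Combination in the labels, or Entinostat alone, Nutlin-3A alone or the DMSO vehicle, with 2 libraries in each of the 8 groups. Nutlin-3A keeps MDM2 from binding p53 and so stabilises p53, and Entinostat inhibits class I histone deacetylases. The labels do not give the number of p53-/- clones, so a difference between genotypes cannot be told apart from a difference between clones. They also do not say whether the replicates came from separate cultures, so p-values measure the spread between these libraries, which may be technical. The libraries held 45902800 to 55507300 alignments. Epithelial markers (5 genes) summed to 1359 to 2649 RPKM, the fibroblast markers (3 genes in the table) to 2.06 to 5.93 RPKM, nearly all of it COL1A1, and the leukocyte and endothelial markers to at most 0.197 and 0.059 RPKM.

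Complex I passes electrons from NADH to ubiquinone, complex II does so from succinate, complex III passes them on to cytochrome c, and complex IV passes them to oxygen. The proton gradient built by complexes I, III and IV drives the ATP synthase. The transcription factors NRF1, GABP (an ETS family factor) and YY1 are known to bind the promoters of many of these genes, and PGC-1 family coactivators act through some of them.

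Promoter windows of 250 bases before to 50 bases after the annotated start (RefSeq, GRCh38.p14) were found for 63 of the 77 subunits. On either strand, the NRF1 letters (GCGC, then A and any base, then GCGC) were present in 15 of the 63 windows (23.8%), against 6.28% of 27305 windows of all genes. The ETS letters CCGGAAG were present in 19 (30.2%), against 10.7% of all windows, and the YY1 letters AANATGGCG in 16 (25.4%), against 3.37%. Matches to different motifs shared a window in 3 (NRF1 and ETS), 4 (NRF1 and YY1) and 5 cases (ETS and YY1), and no such matches overlapped in position. In 14 of the 16 windows the YY1 match began after the annotated start. In 11 of these it lay on the gene's strand, where its last 6 letters can also be a start codon followed by an alanine codon. A match is a description of letters and not of binding.

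The windows below belong to NDUFS3 and UQCRFS1, which are among the subunits with the largest fall under Entinostat, and to NDUFA9, which fell less. The last belongs to NDUFV3, the only subunit called higher with Nutlin-3A alone in p53+/+ cells in the main fit. These windows are examples and do not show how common a motif is among the subunits that fell. They are written 5′ to 3′ on the gene's strand, and capitals mark matches to the 3 motifs on either strand. They lie at chr11:47578824-47579123 (plus strand, NDUFS3), chr19:29213102-29213401 (minus strand, UQCRFS1), chr12:4648864-4649163 (plus strand, NDUFA9) and chr21:42893059-42893358 (plus strand, NDUFV3).
NDUFS3: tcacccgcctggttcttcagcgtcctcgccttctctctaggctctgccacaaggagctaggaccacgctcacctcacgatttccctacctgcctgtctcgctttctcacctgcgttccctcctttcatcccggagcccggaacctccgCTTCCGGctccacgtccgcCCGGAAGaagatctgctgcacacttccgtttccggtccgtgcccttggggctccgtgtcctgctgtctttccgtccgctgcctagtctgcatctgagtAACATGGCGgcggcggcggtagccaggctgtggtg
UQCRFS1: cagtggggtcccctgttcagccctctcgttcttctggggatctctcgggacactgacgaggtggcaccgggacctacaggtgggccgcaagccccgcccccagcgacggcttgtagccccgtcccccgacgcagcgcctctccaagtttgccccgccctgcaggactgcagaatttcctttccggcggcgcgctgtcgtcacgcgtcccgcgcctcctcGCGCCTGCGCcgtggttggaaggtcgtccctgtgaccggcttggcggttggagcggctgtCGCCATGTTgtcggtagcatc
NDUFA9: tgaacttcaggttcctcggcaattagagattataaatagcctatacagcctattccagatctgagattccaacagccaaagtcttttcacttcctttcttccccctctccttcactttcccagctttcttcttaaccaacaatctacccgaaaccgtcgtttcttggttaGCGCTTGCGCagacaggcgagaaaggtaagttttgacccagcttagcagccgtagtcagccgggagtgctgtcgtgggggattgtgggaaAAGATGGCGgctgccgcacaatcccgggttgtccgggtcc
NDUFV3: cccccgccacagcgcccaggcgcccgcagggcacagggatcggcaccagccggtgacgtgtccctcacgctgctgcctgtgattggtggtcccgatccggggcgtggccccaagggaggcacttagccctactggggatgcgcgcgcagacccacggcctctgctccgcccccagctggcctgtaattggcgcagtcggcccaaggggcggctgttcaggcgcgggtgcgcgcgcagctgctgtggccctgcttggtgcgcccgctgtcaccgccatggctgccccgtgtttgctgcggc
The NDUFS3 window held 2 ETS matches and 1 YY1 match. The UQCRFS1 and NDUFA9 windows each held 1 NRF1 and 1 YY1 match. The NDUFV3 window held none of the 3, which says only that these letters are not in it.

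The respiratory chain transcripts were abundant in these cells. By mean RPKM over the 16 libraries, 62 of the 77 subunits stood among the top 10% of the 12466 genes tested (at least 46.77 RPKM), and 76 stood above the median gene (7.805 RPKM). The median subunit had 60.4 RPKM in complex I, 58.2 in complex II, 90.8 in complex III, 206 in complex IV and 167 in the ATP synthase. ATP5B, the catalytic beta subunit of the ATP synthase, was highest at 633 RPKM. NDUFA5, an accessory subunit of complex I, was lowest at 6.94 RPKM. Within complex I, the means reached 343 RPKM for the accessory subunit NDUFB9. In complex II they ran between 34.97 RPKM for the membrane anchor SDHC and 119 RPKM for the iron-sulfur subunit SDHB. In complex III they ran between 44.9 RPKM for UQCRB and 301 RPKM for the hinge protein UQCRH. In complex IV they ran between 21.6 RPKM for COX7A2L, which joins complexes III and IV into supercomplexes, and 415 RPKM for COX7C. ATP5J, the coupling factor 6 subunit, was lowest in the ATP synthase at 43.1 RPKM.

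**Figure D1:**
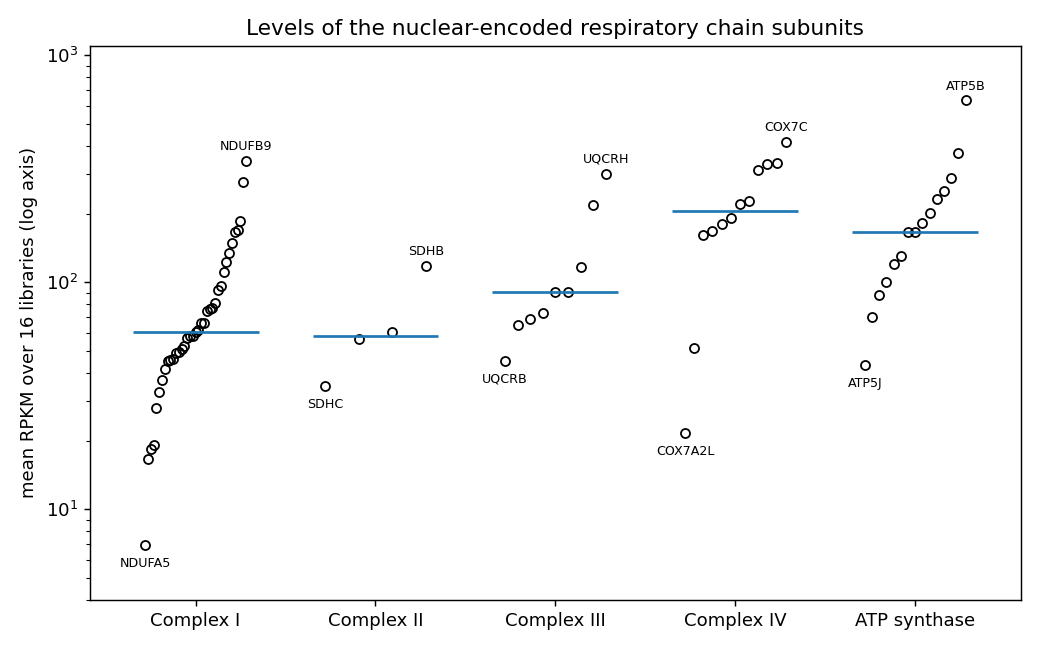
Mean RPKM over the 16 libraries of each of the 77 subunits (circles, log axis), by complex, with blue lines at the complex medians of 60.4, 58.2, 90.8, 206 and 167 RPKM. The highest and lowest subunits are named, and NDUFA5 lies apart below the others at 6.94 RPKM.

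Among isoforms, COX4I1, COX6A1 and COX6B1 were at 313, 336 and 221 RPKM, whereas the testis isoform COX6B2 was at 0.53 RPKM and COX7B2 and COX8C were at 0.03 and 0.09 RPKM. NDUFA4 was at 51.2 RPKM and its hypoxia-linked relative NDUFA4L2 at 0.14 RPKM. COX4I2, COX6A2, COX7A1 and the 13 subunits encoded in mitochondrial DNA were not analysed here. Of the 3 genes for subunit c of the ATP synthase, ATP5G1 was at 167 RPKM, ATP5G2 at 100.4 RPKM and ATP5G3 at 70.5 RPKM.

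The levels varied little. The ratio of the highest to the lowest of the 16 libraries had a median of 1.44 over the subunits and was under 1.5 in 45 of 77. It ran between 1.19 for ATP5H and 2.28 for NDUFA5, and 3 subunits (NDUFA5, NDUFV3 and NDUFC2) exceeded 2. Over 12338 tested genes with at least 0.1 RPKM in every library the median ratio was 1.96. These sets differ in level, with a median of 7.805 RPKM over all tested genes and 90.83 RPKM over the subunits. Genes of matching level were not compared, so a stability particular to the subunits is not shown. The means of NDUFA5, NDUFV3 and NDUFC2 were 6.94, 16.7 and 19.3 RPKM. The summed RPKM of a complex differed between its highest and lowest library by 1.23-fold for complex I, 1.15-fold for complex II, 1.24-fold for complex III, 1.48-fold for complex IV and 1.21-fold for the ATP synthase. The median subunit was lower in replicate 2 than in replicate 1 in all 8 groups, with median log2 differences between -0.187 and -0.0852. RPKM summed over all rows also differed, from 348800 (replicate 2 of Nutlin-3A, p53-/- cells) to 413745 (replicate 1 of Combination, p53+/+ cells). This total was likewise lower in replicate 2 in all 8 groups. Its part in the differences between complex sums and between replicates was not tested. For complex IV in Combination-treated p53+/+ cells, the sums were 3348 and 2660 RPKM in replicates 1 and 2, a wider gap than that between the highest and the lowest group mean of that complex (3004 and 2454 RPKM).

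**Figure D2:**
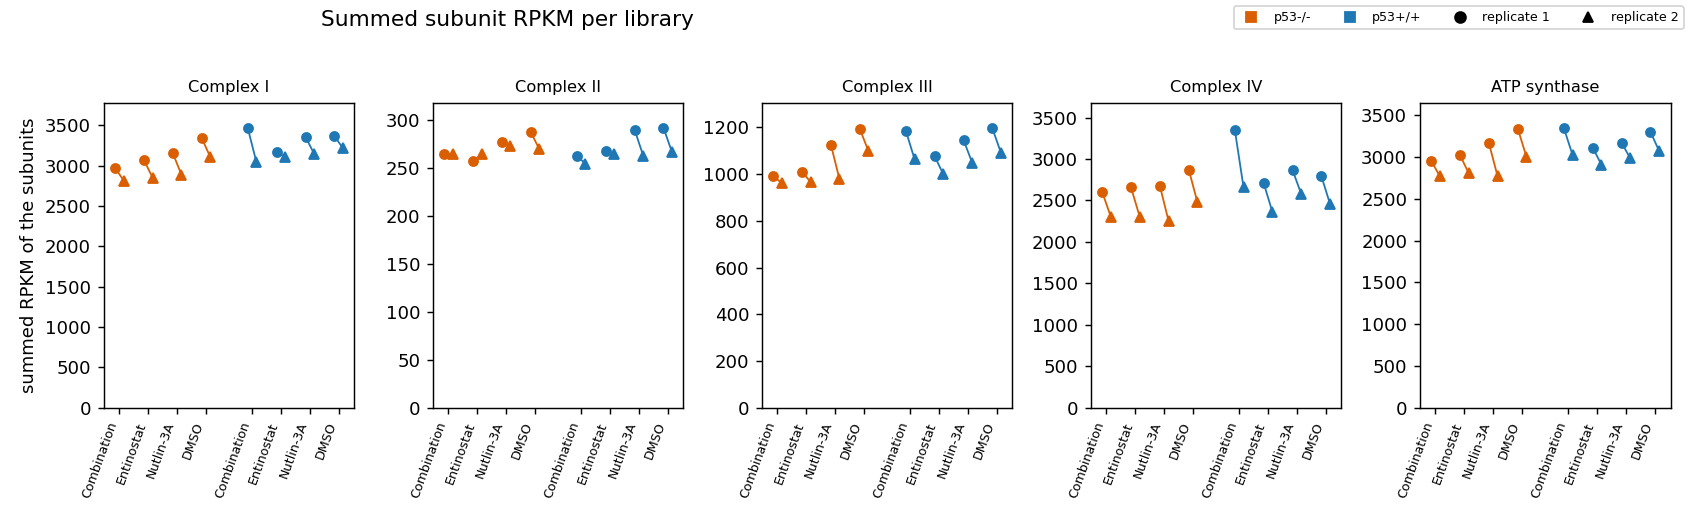
Summed RPKM of the subunits of each complex in every library, with circles for replicate 1, triangles for replicate 2, orange for p53-/- and blue for p53+/+ cells; each panel has its own axis from 0. In complex IV the line between replicates is longest in Combination-treated p53+/+ cells, at 3348 and 2660 RPKM.

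The effect of Entinostat was measured over both genotypes by setting the 4 groups that received it (with or without Nutlin-3A) against the 4 groups without it. In these 8 against 8 libraries 22 of the 77 subunits fell and 1 rose (limma on log2(RPKM + 0.5), adjusted p under 0.05), a split that moved to 11 higher and 11 lower among the 82 members after quantile normalization. Over all 82 members 24 were lower and 2 higher, or 31.7%, against 61.8% of all tested genes (30.1% lower and 31.7% higher). After quantile normalization 3484 of the 12466 tested genes were higher and 3936 lower. A fit with the replicate number as a block gave 35 lower and 6 higher members, against 71.6% of all genes. In alternatives added after the data were seen, 21 members passed in the groups without Nutlin-3A (46.8% of all genes), 18 within the p53-/- groups (45.4%) and 11 within the p53+/+ groups (49.3%). The median log2 change was -0.06 over the subunits and 0.01 over all tested genes. Fold changes are on the log2(RPKM + 0.5) scale. The epithelial markers summed to 1835 to 2649 RPKM in the Entinostat libraries, against 1359 to 1823 RPKM in the others, and the fibroblast markers to 3.72 to 5.93 RPKM, against 2.06 to 2.78 RPKM. The part of these marker differences in the subunit changes was not tested. In bulk libraries, fewer cells of a state and less RNA per cell cannot be told apart.

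Complex I supplied 12 of the falls, against 6 lower and 5 higher after quantile normalization, and NDUFS1, NDUFS3 and NDUFS8, core subunits of a kind conserved in bacteria, were among them. NDUFS3, a core subunit of the quinone-binding module, had 60.5, 65.7 and 73.2 RPKM (lowest, median and highest) in the Entinostat libraries, against 76.2, 88.2 and 94.4 RPKM in the libraries without it. Every Entinostat library lay below every library without Entinostat. The log2 change was -0.36 (SE 0.04, limma adjusted p = 2.6e-05), with -0.42 among replicate 1 libraries and -0.30 among replicate 2 libraries.

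NDUFS1, the largest core subunit, had 24.3, 25.6 and 27.99 RPKM with Entinostat, against 28.2, 29.4 and 32.3 RPKM without it, again with no overlap (log2 change -0.21, SE 0.04, limma adjusted p = 0.00065). Of the 30 accessory subunits, 8 fell and 1 rose. The largest accessory fall was that of NDUFB7, which had 74.9, 85.6 and 112 RPKM with Entinostat, against 79.9, 106.5 and 122 RPKM without it. These ranges overlapped, and the change was -0.26 (SE 0.07, limma adjusted p = 0.0069). NDUFB3, a small accessory subunit of the membrane arm, was the 1 subunit that rose. It had 66.4, 70.4 and 76.9 RPKM with Entinostat, against 58.7, 60.6 and 67.1 RPKM without it (log2 change 0.19, SE 0.05, limma adjusted p = 0.0041).

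In complex III 4 of 9 subunits fell, among them its nuclear-encoded catalytic subunits CYC1 and UQCRFS1, which were the 2 lower ones beside 2 higher (UQCRC1 and UQCRQ) after quantile normalization. CYC1, the cytochrome c1 subunit, had 184, 193 and 201 RPKM with Entinostat, against 203, 249.2 and 278.5 RPKM without it. All 8 Entinostat libraries were below the other 8, and the change was -0.34 (SE 0.05, limma adjusted p = 0.00013). UQCRFS1, the Rieske iron-sulfur protein, had 70.7, 80.6 and 84.9 RPKM with Entinostat, against 85.2, 100.2 and 116 RPKM without it. Its change was -0.33 (SE 0.06, limma adjusted p = 0.00036), and its ranges met without overlapping. NDUFS3, CYC1 and UQCRFS1 passed the test under each of the 26 other settings tried, with adjusted p of at most 0.00089, 0.0037 and 0.0083.

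In the ATP synthase 5 of 15 subunits fell, but after quantile normalization 1 (ATP5D). The largest change was that of ATP5D, the delta subunit of the rotor stalk, which averaged 119 ± 21.2 RPKM with Entinostat and 141 ± 21.5 RPKM without it (SD, n = 8 each; log2 change -0.24, limma adjusted p = 0.015). ATP5J had 35.01, 41.3 and 42.0 RPKM with Entinostat, against 42.8, 45.1 and 49.6 RPKM without it, with no overlap (log2 change -0.18, limma adjusted p = 0.0036, but 0.2 after quantile normalization). In complex II only SDHB passed (log2 change -0.13, limma adjusted p = 0.025), and after quantile normalization it did not pass while SDHA and SDHC were higher. The other complex II subunits, SDHA, SDHC and SDHD, did not pass and had log2 changes between -0.16 and 0.03.

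In complex IV none of the 12 subunits passed the limma test with Entinostat, and none had an unadjusted p under 0.05. Their changes ran between -0.14 for COX8A and 0.12 for NDUFA4, and 6 were positive and 6 negative. For COX4I1, the 95% interval of the log2 change was -0.14 to 0.09. Under the replicate block COX6C and NDUFA4 were higher and COX5B and COX8A lower, and after quantile normalization NDUFA4 was higher. Over all subunits, the Entinostat libraries lay wholly below the others for ATP5J, CYC1, NDUFS1, NDUFS3 and UQCRFS1 (5 of 77, against 6.94% of all tested genes), and wholly above them for 0 subunits, against 8.7%.

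**Figure D3:**
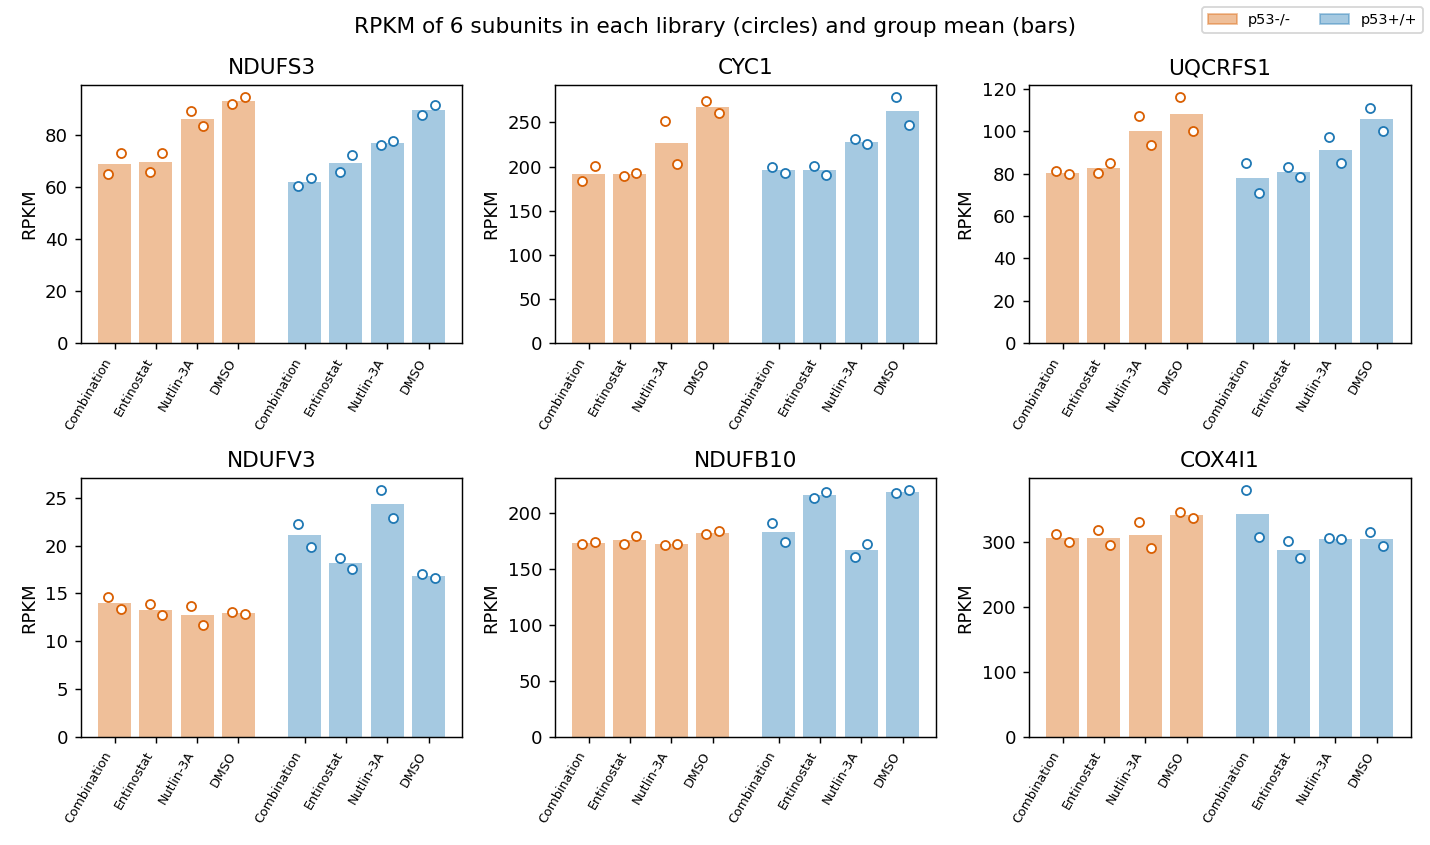
RPKM of 6 subunits in each library (circles) with the group mean (bars), p53-/- cells in orange and p53+/+ cells in blue, each panel from 0. NDUFS3, CYC1 and UQCRFS1 are lower in the Combination and Entinostat groups of both genotypes, NDUFV3 is higher and NDUFB10 lower in the Nutlin-3A group of p53+/+ cells, and COX4I1 has no called change with Entinostat.

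The windows shown earlier can be set beside these calls. Of the 22 subunits that fell with Entinostat, 17 had a promoter window. The YY1 letters were present in 9 of these 17 windows and in 7 of the 46 windows of the other subunits. The ETS letters were present in 5 of 17 and 14 of 46, and the NRF1 letters in 3 of 17 and 12 of 46. These shares were not tested. They rest on the calls of the main fit, many of which were lost after quantile normalization. Of the 9 subunits with YY1 letters, at least ATP5J, SDHB and UQCR10 were no longer called lower there. Shares under that scaling were not counted.

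Taken within each genotype against DMSO, Entinostat alone lowered 11 members and raised 1 in p53-/- cells (14.6%), against 28.2% of all tested genes (13.3% of all genes lower). In p53+/+ cells it lowered 3 and raised 1 (4.88%), against 27.5% of all genes (12.4% lower, 15.1% higher). The replicate block moved these counts to 26 and 12 members, against 45.5% and 44.6% of all genes. After quantile normalization the p53-/- count was 4 lower and 1 higher, against 1433 lower and 1257 higher of the 12466 tested genes. Shares of all tested genes with a library left out are not given, so a change special to these members is not shown. With any single library left out, which leaves a group of 1 library, the main counts of both genotypes were lower. In p53-/- cells they were 0 without replicate 1 of Entinostat and 3 or 4 without any other library of the comparison. In p53+/+ cells they were 0 without replicate 1 of Entinostat, 1 without replicate 2 of DMSO and 2 without either other library.

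CYC1 had 189 and 193 RPKM in Entinostat-treated p53-/- cells, against 275 and 261 RPKM in DMSO-treated p53-/- cells (log2 change -0.48, limma adjusted p = 0.006). In p53+/+ cells it had 201 and 191 RPKM with Entinostat, against 279 and 247 RPKM with DMSO (-0.42, limma adjusted p = 0.012). In both genotypes the Entinostat libraries lay below the DMSO libraries. The response to Entinostat itself was compared between genotypes, p53+/+ minus p53-/-, and limma called 0 of 82 members and 0.0% of all tested genes. At an unadjusted p under 0.05 this contrast held 1 member and 164 of all genes, and with the replicate block 0 members were called, against 0.0321% of all genes. For the subunits, the difference in log2 change ran between -0.08 and 0.20.

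Combination against DMSO gave 17 lower and 0 higher members in p53-/- cells (20.7%), against 31.8% of all tested genes (14.7% lower, 17.1% higher). In p53+/+ cells 17 were lower and 4 higher (25.6%), against 50.0% of all genes (26.8% lower, 23.2% higher). The direction in p53+/+ cells depended on the scaling. Median of ratios scaling gave 13 lower and 9 higher members, against 2938 lower and 3297 higher of 12463 tested genes. Quantile normalization gave 8 lower and 21 higher members, against 3121 lower and 2695 higher of 12466 tested genes. In p53-/- cells quantile normalization gave 7 lower and 1 higher, against 1622 lower and 1399 higher of all tested genes. Blocked by replicate, 31 members passed in p53-/- cells (48.8% of all genes). In p53+/+ cells 41 passed (21 lower and 20 higher, against 64.0% of all genes). No share of all genes is given for the fits that follow, in which a group keeps 1 library. Leaving out a single library gave 0 to 9 calls in p53-/- cells, with 0 without replicate 1 of Combination, 6 and 7 without replicates 1 and 2 of DMSO and 9 without replicate 2 of Combination. In p53+/+ cells the count, and its split between higher and lower members, also depended on which library was left out. Without replicate 2 of Combination the called members no longer leaned to lower.

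NDUFS3 showed the largest fall among the subunits of p53+/+ cells. It had 60.5 and 63.6 RPKM with Combination, against 87.4 and 91.3 RPKM with DMSO (log2 change -0.52, SE 0.09, limma adjusted p = 0.00056). NDUFV2, a core subunit that carries an iron-sulfur cluster, averaged 97.2 ± 0.649 RPKM with Combination and 127 ± 2.09 RPKM with DMSO in these cells (SD, n = 2 each; limma adjusted p = 0.0053). NDUFS3, NDUFS1, NDUFV2 and the noncoding row NDUFA6-AS1 kept their call in p53+/+ cells without any single library. In p53-/- cells NDUFS3 had 65.0 and 72.8 RPKM with Combination, against 91.8 and 94.4 RPKM with DMSO (-0.43, SE 0.09, limma adjusted p = 0.0039). ATP5D averaged 102 ± 5.23 RPKM with Combination and 147 ± 12.2 RPKM with DMSO in p53-/- cells (SD, n = 2 each; log2 change -0.53, limma adjusted p = 0.021).

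SDHA, the flavoprotein of complex II, rose in Combination-treated p53+/+ cells (65.6 ± 7.30 RPKM with Combination and 54.4 ± 2.45 RPKM with DMSO, SD, n = 2 each; limma adjusted p = 0.041), and its iron-sulfur partner SDHB fell (104 ± 6.26 RPKM with Combination and 128 ± 6.68 RPKM with DMSO; limma adjusted p = 0.015). None of the 12 complex IV subunits passed with limma in Combination-treated p53+/+ cells, where 11 of 12 changes were positive, the median was 0.19 and 1 had an unadjusted p under 0.05. Under the replicate block 8 of them were higher. COX7C, a small structural subunit, had 538.5 and 445 RPKM with Combination, against 435 and 373 RPKM with DMSO. Replicate 1 was the higher library in both groups, and the groups did not overlap (log2 change 0.28, SE 0.14, limma adjusted p = 0.1).

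**Figure D4:**
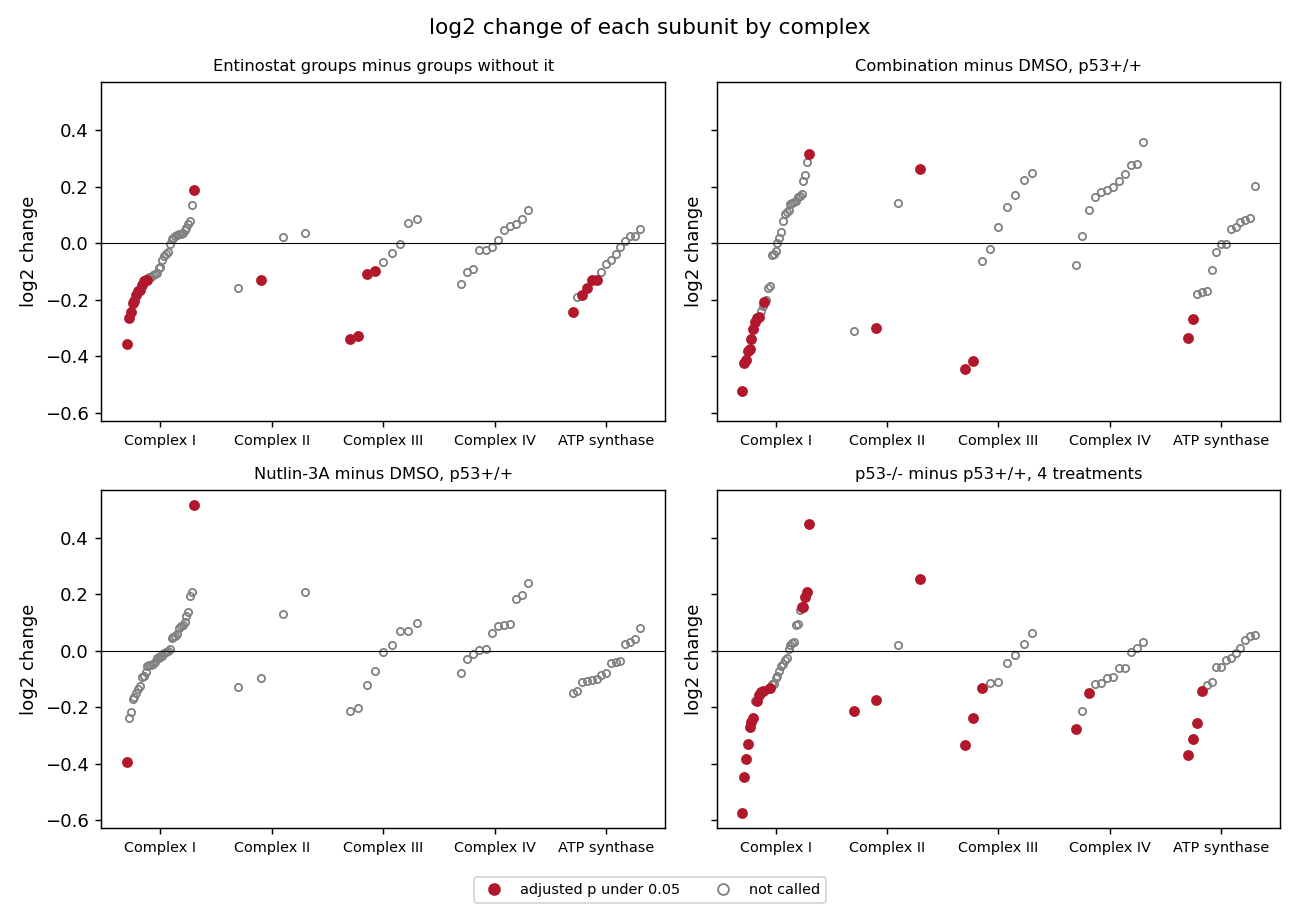
log2 change of each subunit, sorted within its complex, for 4 comparisons; filled red points passed limma at an adjusted p under 0.05 and open points did not. Complex IV has no filled point outside the genotype panel, and the 2 filled points of complex I with Nutlin-3A are NDUFV3 at 0.52 and NDUFB10 at -0.39.

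Nutlin-3A changed few of these transcripts. In p53+/+ cells 1 member rose and 1 fell (2.44%), against 17.4% of all tested genes (7.89% higher, 9.5% lower), and both were accessory subunits of complex I. NDUFV3, a subunit of the NADH-binding module, had 25.8 and 22.9 RPKM with Nutlin-3A, against 17.1 and 16.6 RPKM with DMSO. Both Nutlin-3A libraries were higher, and the log2 change was 0.52 (SE 0.10, limma adjusted p = 0.004). Without replicate 1 of Nutlin-3A its adjusted p was 0.054, and the count of calls was 1. NDUFB10, a subunit of the membrane arm, had 161 and 172 RPKM with Nutlin-3A, against 218 and 220 RPKM with DMSO. Both Nutlin-3A libraries were lower, with a log2 change of -0.39 (SE 0.07, limma adjusted p = 0.0032). The replicate block gave 8 called members, against 31.5% of all genes. Quantile normalization gave 3 higher and 1 lower, against 936 higher and 968 lower of all tested genes.

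In p53-/- cells limma called 0 of 82 members and 0.0% of all tested genes with Nutlin-3A, also with the replicate block, while 9 members and 440 of all genes had an unadjusted p under 0.05. NDUFV3 had 13.7 and 11.7 RPKM with Nutlin-3A, against 13.1 and 12.8 RPKM with DMSO (log2 change -0.03, 95% interval -0.25 to 0.19). NDUFB10 had 171 and 173 RPKM with Nutlin-3A, against 182 and 184 RPKM with DMSO (-0.09, 95% interval -0.25 to 0.08). The difference of the Nutlin-3A responses, p53+/+ minus p53-/-, passed for 1 member, NDUFV3 (1.22%), against 6.78% of all tested genes (3.49% higher, 3.29% lower). It was 0.55 on the log2 scale (SE 0.14, limma adjusted p = 0.042). The adjusted p was 0.0022 with the replicate block, where 9 members passed against 17.1% of all genes. It was over 0.05 without either DMSO library of p53+/+ cells (0.1 and 0.14), either DMSO library of p53-/- cells (0.12 and 0.1), replicate 1 of Nutlin-3A in p53+/+ cells (0.17) or replicate 2 of Nutlin-3A in p53-/- cells (0.16). For NDUFB10 the difference was -0.31 (SE 0.11, limma adjusted p = 0.12), and it passed with the replicate block (limma adjusted p = 0.028). SDHA, with a difference of 0.34, also passed only with the block (limma adjusted p = 0.026).

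Pooling the p53+/+ groups with Nutlin-3A (with and without Entinostat) against those without it gave 4 higher members (NDUFV3, NDUFS5, NDUFA13 and SDHA) and 4 lower (NDUFB10, NDUFV2, NDUFA6 and NDUFS3). This was 9.76%, against 30.4% of all tested genes (12.1% higher, 18.3% lower). NDUFS5, a small accessory subunit, averaged 331 ± 25.3 RPKM with Nutlin-3A and 277.5 ± 17.6 RPKM without it (SD, n = 4 each; limma adjusted p = 0.0091), with no overlap. NDUFV2 averaged 107 ± 13 RPKM with Nutlin-3A and 127 ± 4.53 RPKM without it (SD, n = 4 each; limma adjusted p = 0.01), and these ranges overlapped. It had 124.7 and 108.0 RPKM with Nutlin-3A alone, where it was not called, and 96.7 and 97.6 RPKM with Combination. The split was 8 higher and 2 lower after median of ratios scaling, against 1852 higher and 1839 lower of all tested genes. After quantile normalization it was 14 higher and 2 lower, against 1690 higher and 1903 lower of all tested genes. Blocked by replicate, 21 were higher and 8 lower, against 46.2% of all genes. With a library left out, no share of all genes is given. The count was 5 without replicate 1 of Combination, 4 without replicate 2 of DMSO and 4 without replicate 2 of Entinostat.

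Between genotypes under DMSO, p53-/- minus p53+/+, limma called 0 of 82 members, against 4.69% of all tested genes (3.13% lower, 1.56% higher), and 7 members and 2050 of all genes had an unadjusted p under 0.05. In the fit blocked by replicate 5 members were lower in p53-/- cells (NDUFA3, NDUFA7, NDUFB10, NDUFV3 and ATP5G1), against 13.1% of all genes. Over the 4 treatments pooled, 25 members were lower and 6 higher in p53-/- cells (37.8%), against 51.6% of all tested genes (25.3% lower, 26.3% higher). The replicate block called 49 members, against 64.1%. Both the Combination and the Nutlin-3A groups enter this contrast. In the groups without Nutlin-3A, an alternative added after the data were seen, 5 members were lower and 0 higher in p53-/- cells, against 12.5% of all genes. These 5 were again NDUFA3, NDUFA7, NDUFB10, NDUFV3 and ATP5G1.

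NDUFV3 had 11.7, 13.2 and 14.6 RPKM (lowest, median and highest) in p53-/- cells, against 16.6, 19.3 and 25.8 RPKM in p53+/+ cells. All p53-/- libraries were below all p53+/+ libraries. The log2 change was -0.57 (SE 0.05, limma adjusted p = 3.1e-06), with -0.57 among replicate 1 and -0.58 among replicate 2 libraries. NDUFA3, a small accessory subunit, had 58.3, 65.7 and 69.1 RPKM in p53-/- cells, against 80.5, 87.4 and 100.5 RPKM in p53+/+ cells, also with no overlap (log2 change -0.45, SE 0.05, limma adjusted p = 1.5e-05). NDUFA7 had 49.2, 57.6 and 63.2 RPKM in p53-/- cells, against 69.3, 74.3 and 89.5 RPKM in p53+/+ cells (-0.38, SE 0.06, limma adjusted p = 0.0002). ATP5G1 had 124, 143.5 and 171 RPKM in p53-/- cells, against 165, 189 and 206 RPKM in p53+/+ cells, and 1 p53-/- library lay above the lowest p53+/+ library (-0.37, SE 0.04, limma adjusted p = 3.7e-05). In complex IV COX5B and COX6B1 were lower in p53-/- cells over the pooled treatments, but neither was called in the groups without Nutlin-3A. Under DMSO COX6B1 averaged 231.5 RPKM in p53-/- and 224.5 RPKM in p53+/+ cells, and COX5B averaged 187.8 and 209.1 RPKM. The p53-/- libraries lay wholly below the p53+/+ libraries for ATP5H, NDUFA3, NDUFA7, NDUFV3, SDHC and UQCRQ (6 of 77, against 3.67% of all tested genes), and wholly above them for 0 subunits, against 2.2%.

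Among the higher transcripts in p53-/- cells, NDUFC2, a membrane arm subunit, had 18.2, 22.5 and 26.7 RPKM there, against 12.1, 16.8 and 19.7 RPKM in p53+/+ cells (log2 change 0.45, SE 0.09, limma adjusted p = 0.0017). Its exons are shared with the readthrough row NDUFC2-KCTD14, so the split of reads between them is uncertain. SDHD, a membrane anchor of complex II, was higher in p53-/- cells (65.4 ± 5.74 RPKM in p53-/- and 54.9 ± 6.63 RPKM in p53+/+ cells, SD, n = 8 each; limma adjusted p = 0.011), whereas SDHA and SDHC were lower. In the groups without Nutlin-3A, the limma adjusted p was 0.17 for NDUFC2, 0.3 for SDHD, 0.8 for SDHA and 0.14 for SDHC. Under DMSO SDHA had 56.1 and 54.5 RPKM in p53-/- cells, against 56.1 and 52.6 RPKM in p53+/+ cells.

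Of the rows that are not subunits, NDUFA6-AS1 is listed by RefSeq as NDUFA6-DT, a divergent transcript whose span on chromosome 22 does not overlap that of NDUFA6 (GRCh38.p14). The row had 3.17 and 2.85 RPKM in Combination-treated p53+/+ cells, against 1.35 and 1.05 RPKM with DMSO (log2 change 1.05, SE 0.18, limma adjusted p = 0.00066). NDUFA6 fell in the same comparison (44.6 ± 4.42 RPKM with Combination and 57.8 ± 1.24 RPKM with DMSO, SD, n = 2 each; limma adjusted p = 0.011). The readthrough row NDUFC2-KCTD14 and ATP5SL were lower with Entinostat (limma adjusted p = 0.011 and 0.00053). UQCRHL shares most of its sequence with UQCRH, so its 1.45 RPKM may hold reads of its parent.

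Other mitochondrial gene lists were described beside the subunits in the pooled Entinostat comparison, where 61.8% of all tested genes passed. After quantile normalization 3936 of all tested genes were lower and 3484 higher. Of 79 mitochondrial ribosome rows tested, 54 were lower and 2 higher (39 lower and 7 higher after quantile normalization), with a median log2 change of -0.22. MRPS35 and MRPS26, proteins of the small subunit, fell by 0.63 and 0.62 on the log2 scale (limma adjusted p = 1.8e-05 and 2.5e-06). Of 46 assembly factors, 19 were lower and 4 higher (18 lower and 9 higher after quantile normalization), with a median of -0.12. COA7, COA6 and COA3, which assist complex IV assembly, fell by 0.64, 0.59 and 0.53 on the log2 scale (limma adjusted p = 2.7e-05, 8e-05 and 1e-05), while the complex II factor SDHAF4 rose by 0.48 (limma adjusted p = 0.0034). SCO2, a copper chaperone of complex IV and a known p53 target, had a change of -0.40 with Nutlin-3A in p53+/+ cells (SE 0.14, limma adjusted p = 0.074).

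Of 19 regulators of mitochondrial biogenesis, 11 were lower and 1 higher with Entinostat (11 lower and 3 higher after quantile normalization), with a median log2 change of -0.22. PPRC1, a PGC-1 family coactivator, fell by 0.90 on the log2 scale (limma adjusted p = 1.9e-05), and YY1 fell by 0.59 (limma adjusted p = 1e-05). NRF1 fell by 0.22 (limma adjusted p = 0.0013), and TFAM, which packages and transcribes mitochondrial DNA, had a change of -0.09 (limma adjusted p = 0.26). PPARGC1A, the gene of PGC-1α, was listed at 0 to 0.02 RPKM. With Nutlin-3A NRF1 had 6.09 and 5.42 RPKM in p53+/+ cells, against 8.72 and 8.52 RPKM with DMSO (log2 change -0.55, SE 0.09, limma adjusted p = 0.0013). Its Nutlin-3A response, p53+/+ minus p53-/-, was -0.54 (SE 0.13, limma adjusted p = 0.027).

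Of 18 tricarboxylic acid cycle genes, 6 were lower and 2 higher with Entinostat, a split that turned to 2 lower and 6 higher after quantile normalization. OGDH, a subunit of the 2-oxoglutarate dehydrogenase complex, rose by 0.85 on the log2 scale (limma adjusted p = 2.4e-06). Of 15 mobile carriers and exchange proteins, 5 were lower and 2 higher, against 2 lower and 5 higher after quantile normalization and 7 lower and 5 higher with the replicate block. SLC25A4, the muscle-type ADP/ATP carrier, rose by 1.07 (limma adjusted p = 1.4e-05), and SLC25A6, another ADP/ATP carrier, fell by 0.28 (limma adjusted p = 0.013). CYCS, cytochrome c, had a change of 0.16 (limma adjusted p = 0.074), which was 0.29 and passed after quantile normalization (limma adjusted p = 0.0096). AIFM1, a flavoprotein of the intermembrane space, fell by 0.10 (limma adjusted p = 0.038, but 0.89 after quantile normalization). Of 19 glycolysis genes, 5 were higher and 5 lower, and 7 and 6 after quantile normalization. HK2, a hexokinase, fell by 1.23 on the log2 scale (limma adjusted p = 2.3e-06), and ENO2, an enolase, rose by 1.06 (limma adjusted p = 1.2e-06).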

How the data were processed

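RNA of 16 HCT116 libraries was sequenced after stranded mRNA library preparation, per the labels' protocols. The deposited table holds RPKM per gene, made by the authors. Bowtie2, Partek and the hg19 build are named, per the submitters' processing notes; their versions, the gene models and strand use were not given in the sources used here. Read counts per gene were not used here, so no counting interval is given.

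Genes with a mean of at least 0.5 RPKM over the 16 libraries (12466 of 20612) were tested on log2(RPKM + 0.5) with limma 3.58.1 (R 4.3.3, trend option), fitting 8 group means with 8 residual and 4.09 prior degrees of freedom. P-values are two-sided, with Benjamini-Hochberg adjustment over all tested genes and calls at 0.05. The procedure was also run on simulated data, with changes of set sizes placed only in the Nutlin-3A group of p53+/+ cells. The simulated noise was independent between libraries and held no replicate effect, unlike these data. Its outcome is not given here. Alternatives were other pseudocounts, filters and scalings, each library left out, and the replicate number as a block. Deviations of same-numbered libraries from their group means correlated in all 28 pairs of groups (r between 0.275 and 0.778). The numbers were therefore taken to pair libraries in the blocked fit, and the blocked counts stand beside the results they change. The main fit holds no replicate term, so its SEs, intervals and adjusted p-values of single genes ignore this pairing unless the block is named. Named genes were the members with up to 8 largest called changes in each direction per comparison, preset isoforms, extremes of each complex and up to 4 called genes of each other list. NDUFS1 and ATP5J (Entinostat) and NDUFB10 (difference of responses) fall outside this rule and were chosen after their values were seen. The levels of some genes are not reported here. The members, lists and tests were chosen with earlier results of these data known.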

Additional observations from a re-analysis of the deposited data

Results flagged for a closer look

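The Nutlin-3A response of NDUFV3 differed between genotypes by a test of the difference itself. On the log2 scale the response in p53+/+ cells minus that in p53-/- cells was 0.546 (SE 0.14, limma adjusted p = 0.042), with log2 changes of 0.52 in p53+/+ cells and -0.03 in p53-/- cells. Both Nutlin-3A libraries of p53+/+ cells were above both DMSO libraries, and the groups of p53-/- cells overlapped. With each library left out in turn, the adjusted p ran between 0.028 and 0.17.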

How the results depend on the processing

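Pseudocounts of 0.1 and 1 and a minimum of 1 RPKM left the count of called members within 1.5 times its value in all 12 comparisons. Without a filter the DMSO genotype comparison had 1 call and the difference of the Nutlin-3A responses 0. After quantile normalization the counts of called members were 4 for Nutlin-3A in p53+/+ cells and 16 for Nutlin-3A pooled in p53+/+ cells. In p53-/- cells they were 5 for Entinostat and 8 for Combination. They were 2 for the DMSO genotype comparison (200 higher and 291 lower of all tested genes). They were also 2 for the difference of the Nutlin-3A responses (431 higher and 343 lower of all tested genes). With the replicate block they were 8, 12 and 41 for Nutlin-3A, Entinostat and Combination in p53+/+ cells, 26 and 31 for Entinostat and Combination in p53-/- cells, 5 for the DMSO genotype comparison, 9 for the difference of the Nutlin-3A responses, 41 for pooled Entinostat, 49 for the pooled genotypes and 29 for pooled Nutlin-3A; the block left 0 calls in the other 2 comparisons. Added after seeing the data, the groups without Nutlin-3A gave 5 calls between genotypes and the p53+/+ groups alone 11 for pooled Entinostat (18 in the p53-/- groups alone). With each library left out in turn, the counts ran 1 to 2, 0 to 2 and 6 to 22 for Nutlin-3A, Entinostat and Combination in p53+/+ cells, 0 to 0, 0 to 4 and 0 to 9 for these in p53-/- cells, 0 to 0 for the DMSO genotype comparison, 0 to 1 and 0 to 0 for the differences of the Nutlin-3A and Entinostat responses, 21 to 29 for pooled Entinostat, 26 to 37 for the pooled genotypes and 4 to 9 for pooled Nutlin-3A. Of the pooled Entinostat calls 20 of 26, and of the pooled genotype calls 23 of 31, remained without any single library. UQCR10 reversed to 0.0056 under quantile normalization with Entinostat, and NDUFB2 to 0.0116 between genotypes without the Nutlin-3A groups; the cause was not tested. A group left with 1 library was assumed to vary like the others. Shares of all tested genes are not given for the fits that leave a library out. The smallest change that 2 libraries a group can detect was not measured.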
